A study of Mus musculus with 12 samples.

Results

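GSK805, a small-molecule compound, was added to mouse T helper 17 (Th17) cells that also received ILA, and this account compares those cells with cells given ILA alone. The name ILA is taken as indole-3-lactic acid, a tryptophan metabolite made by gut bacteria. The starting cells were naive CD4+ T cells, sorted with magnets from spleens of C57BL/6J wild types, activated through CD3 and CD28, and cultured in a medium for Th17 differentiation, so every group shares that activation and medium. The ILA group received 200 uM ILA. The combined group received 200 uM ILA and 0.5 uM GSK805. The other groups of the series received vehicle or 0.5 uM GSK805 without ILA. Each of the 4 groups had 3 libraries, so the comparison rests on 6 of the 12 libraries, chosen by their titles. According to the labels the replicates are biological, but animals, ages and cultures are not named, so the p-values speak only to the spread among these libraries, part of which may be technical. Values are FPKM, fragments per kilobase of gene length, scaled to library size. A gene was tested if its mean reached 1 FPKM in the ILA or the combined group, which kept 13125 of 29522 genes. Just inside that limit stood AA386476, at 1.00047 FPKM in its higher group, and just outside stood Cradd, at 0.998916 FPKM.

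Th17 cells are CD4+ helper T cells named for interleukin-17. They defend mucosal surfaces and drive inflammation in several autoimmune diseases. They make interleukin-17A and interleukin-17F. Interleukin-23, sensed through the receptor encoded by Il23r, maintains the cells, and CCR6 and its ligand CCL20 guide them to tissue. The aryl hydrocarbon receptor (AhR), a sensor of tryptophan metabolites that binds the core motif GCGTG, also acts in Th17 cells and induces Il22 and the cytochrome P450 genes Cyp1a1 and Cyp1b1.

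Adding GSK805 to ILA lowered 6 of 11 cytokine and chemokine genes and 12 of 17 receptor and surface genes of the Th17 programme, by up to 4.45-fold (Il22), and shifted many other genes by small factors. Of 13125 genes tested, 2534 (19.3%) passed limma's test at an adjusted p below 0.05, 1352 of them higher (10.3%) and 1182 lower (9.01%). Counts of list members called in this comparison are to be read beside these shares. Among the calls, 87.3% changed by less than 1.5-fold, and the median size was 1.23-fold. Changes of at least 2-fold were seen for 51 lower and 13 higher genes. All folds here compare FPKM + 1, so for genes at low levels the true change is larger. The 3 libraries of one group lay wholly above or below the 3 of the other for 37.9% of all genes tested, 17.5% with the combined group below and 20.4% with it above. The median log2 fold change over all genes was 0.02. On the first principal component, which held 53.3% of the variance, the 6 libraries with ILA stood apart from the 6 without. The second, with 12.5%, separated the 6 libraries with GSK805 from the 6 without. Reads recovered from the values ran from 17805465 to 23443659 in the 6 libraries compared.

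**Figure D1:**
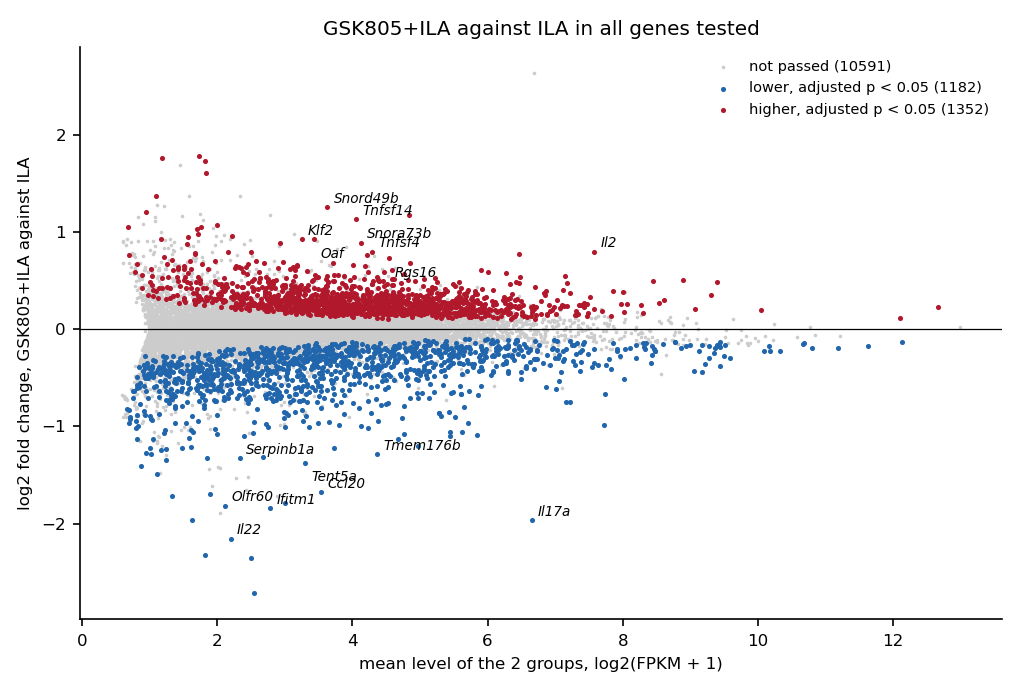
Log2 fold change between the combined group and the ILA group (vertical axis, ratio of FPKM + 1) against the mean level of both groups (horizontal axis, log2 of FPKM + 1), 1 point per gene tested. Blue and red points passed the test as lower and higher; the named points are the 8 largest rises and 8 largest falls by the naming rule, with Il17a far below the other genes of its level.

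The signature cytokines of Th17 cells fell. Il17a, which encodes interleukin-17A, was at 153, 173 and 153 FPKM in the 3 ILA libraries and at 36.4, 38.5 and 45.5 FPKM in the 3 combined libraries. Its means were 159 ± 11.5 and 40.1 ± 4.75 FPKM (SD, n = 3), a 3.91-fold fall (log2 fold change -1.97, SE 0.12, limma adjusted p = 1.3e-05). The highest combined library was far below the lowest ILA library. Il17f, whose product pairs with interleukin-17A, was at 271, 294 and 272 FPKM with ILA and 131, 142 and 148 FPKM with both compounds, a 1.98-fold fall (adjusted p = 1.9e-05). Il22, the cytokine that acts on epithelial barriers, was at 7.71, 7.38 and 4.44 FPKM with ILA and 0.484, 0.522 and 0.997 FPKM with both. In reads, this was 185, 154 and 88 against 10, 13 and 26, and the call was a 4.45-fold fall (adjusted p = 5.8e-04). ILA replicate 3 held the lowest Il22 of its group but stayed above all combined libraries. Iltifb, a close copy of Il22, was at most 0.0978 FPKM in these 6 libraries. In bulk RNA, fewer cells that make a transcript and less of it per cell cannot be told apart.

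Ccl20, the chemokine ligand of CCR6, was at 17.2, 16.7 and 15.8 FPKM with ILA and 2.83, 4.92 and 6.26 FPKM with both compounds (3.2-fold lower, adjusted p = 2.7e-04). Lif, an interleukin-6 family cytokine, was at 33.6, 40.8 and 33.3 FPKM and 14.8, 16.8 and 17.7 FPKM (2.11-fold lower, adjusted p = 9.0e-05). Neither gene's groups overlapped. Il21, which sustains Th17 and follicular helper cells, fell less, from 19.8 ± 0.959 to 15.2 ± 1.89 FPKM (n = 3, 1.29-fold, limma adjusted p = 0.00895). Of 11 tested genes in the list of Th17 cytokines and chemokines, 6 fell, 0 rose and 5 did not pass, with a median log2 fold change of -0.37 against 0.02 over all genes tested. The members that did not pass included Il10, which encodes an anti-inflammatory cytokine: it was at 1.77, 1.83 and 1.28 FPKM with ILA and 2.42, 2.24 and 2.86 FPKM with both (limma adjusted p = 0.0698). All 3 combined libraries were above all 3 ILA libraries for Il10, an order seen in 20.4% of all genes tested.

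**Figure D2:**
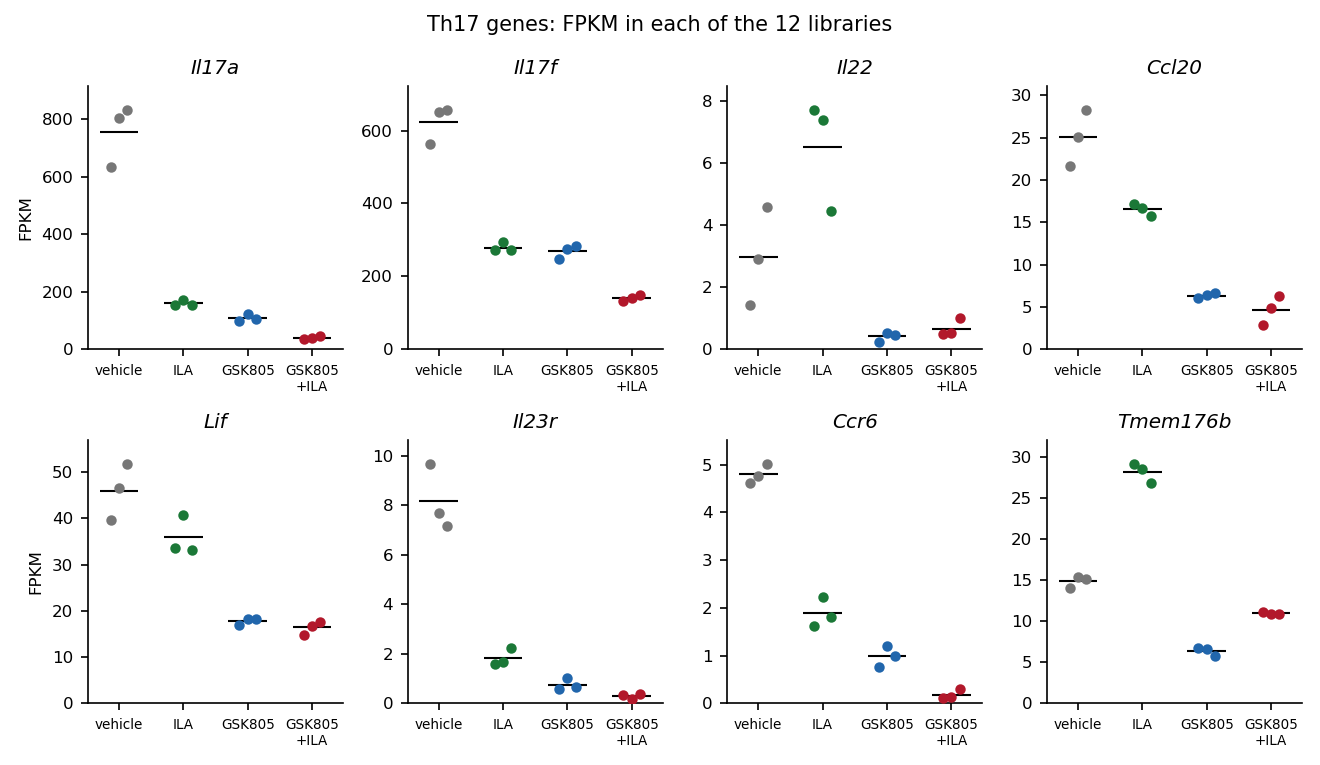
FPKM (vertical axes, linear from 0) of 8 Th17 genes in the 12 libraries. Points are libraries, grouped on the horizontal axis by treatment, and bars are means of 3; in every panel the combined group (red) lies below the ILA group (green).

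Most receptor and surface genes of Th17 cells fell: of 17 tested, 12 were lower, 2 higher and 3 not passed (median log2 fold change -0.56). Il23r was at 1.6, 1.69 and 2.25 FPKM with ILA and 0.345, 0.179 and 0.359 FPKM with both compounds, which is 86, 79 and 100 reads against 16, 10 and 21 (2.19-fold lower on the FPKM + 1 scale, adjusted p = 3.2e-04). Ccr6 was at 1.62, 2.22 and 1.81 FPKM and 0.116, 0.134 and 0.294 FPKM, or 81, 97 and 75 reads and 5, 7 and 16 reads (2.44-fold lower, adjusted p = 5.7e-05). The combined level of both genes thus rests on few reads. Tmem176b and Tmem176a, membrane proteins found in Th17 cells, fell 2.43-fold and 2.33-fold (adjusted p = 2.8e-06 and 2.2e-05). Tmem176b stood at 29.2, 28.6 and 26.9 FPKM with ILA and at 11.2, 10.9 and 10.9 FPKM with both. These neighbours overlap on opposite strands, and whether reads were counted by strand is unknown. Il18r1, a chain of the interleukin-18 receptor, went from 24.0 ± 0.774 to 12.7 ± 0.496 FPKM and Il12rb1, a chain shared by the interleukin-12 and interleukin-23 receptors, from 14.5 ± 1.01 to 9.51 ± 0.497 FPKM (n = 3 each, limma adjusted p = 3.0e-05 and 4.8e-04). Il1r1, the interleukin-1 receptor that boosts Th17 cells, fell 1.33-fold (adjusted p = 0.00452). Il2ra, the high-affinity chain of the interleukin-2 receptor, was one of the 2 that rose, from 157 ± 7.12 to 184 ± 5.93 FPKM (n = 3, limma adjusted p = 0.00324).

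The promoters of 5 of these genes hold AGGTCA, a recognition motif of many nuclear receptors, on one strand or the other. They are the genes of the Th17 cytokine and receptor lists that fell and hold it, and the 250 bases before the start are shown for them. Il22, Tmem176b and Lif, which also fell, do not hold it in this window. The stretches are from RefSeq on GRCm38.p6: Il17a chr1:20730655-20730904 on the plus strand, Il17f chr1:20784271-20784520 on the minus strand, Ccl20 chr1:83116516-83116765 on the plus strand, Il23r chr6:67491856-67492105 on the minus strand, and the first of the Ccr6 starts chr17:8235793-8236042 on the plus strand. Each is read 5′ to 3′ along its gene, and capitals mark AGGTCA or its reverse complement.
Il17a promoter: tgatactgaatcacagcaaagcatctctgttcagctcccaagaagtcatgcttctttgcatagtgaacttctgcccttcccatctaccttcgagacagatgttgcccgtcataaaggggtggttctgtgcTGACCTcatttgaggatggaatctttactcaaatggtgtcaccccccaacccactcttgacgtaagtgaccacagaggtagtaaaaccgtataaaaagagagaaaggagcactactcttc
Il17f promoter: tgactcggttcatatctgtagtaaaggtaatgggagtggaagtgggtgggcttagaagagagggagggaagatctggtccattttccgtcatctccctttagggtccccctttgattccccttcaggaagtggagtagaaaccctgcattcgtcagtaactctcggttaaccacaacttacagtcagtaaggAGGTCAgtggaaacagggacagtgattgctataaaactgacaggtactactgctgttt
Ccl20 promoter: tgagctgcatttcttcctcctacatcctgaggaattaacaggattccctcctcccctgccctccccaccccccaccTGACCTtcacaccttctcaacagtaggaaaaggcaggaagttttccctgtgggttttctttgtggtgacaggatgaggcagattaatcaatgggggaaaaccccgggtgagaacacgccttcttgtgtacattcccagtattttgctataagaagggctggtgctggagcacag
Il23r promoter: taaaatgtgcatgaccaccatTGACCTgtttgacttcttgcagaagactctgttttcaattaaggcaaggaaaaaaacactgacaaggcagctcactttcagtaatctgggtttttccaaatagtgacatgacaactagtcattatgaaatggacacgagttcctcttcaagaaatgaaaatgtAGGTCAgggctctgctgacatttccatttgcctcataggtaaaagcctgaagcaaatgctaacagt
Ccr6 promoter: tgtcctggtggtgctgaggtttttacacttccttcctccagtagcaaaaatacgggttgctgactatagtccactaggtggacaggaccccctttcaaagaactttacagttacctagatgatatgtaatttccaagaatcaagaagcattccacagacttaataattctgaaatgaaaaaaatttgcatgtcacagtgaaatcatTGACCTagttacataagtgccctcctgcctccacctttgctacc
The first base of the motif lay at position -120 from the start of Il17a, -58 of Il17f, -174 of Ccl20 and -44 of Ccr6. Il23r had it at -229 and again at -66. The other Ccr6 start, with chr17:8242276-8242525 before it, does not hold the motif. These are letter matches, not measured binding. Of the 18 Th17 cytokine, chemokine, receptor and surface genes that fell, 17 had a promoter in the RefSeq table, which spans 250 bases before to 50 after a start, and the 5 shown were all that held the motif. The 5 of 17 counts genes, which can have several starts, whereas the shares that follow count promoters, so they are not directly comparable. AGGTCA was in 13.1% of 1042 promoters of lower genes, 12.5% of 1259 of higher genes, 12.3% of 8453 of genes that did not pass, and 16.3% of all 32851 promoters. GCGTG, the AhR core, was in 44.8%, 57.0%, 51.6% and 32.4% of the same sets, again on either strand. Among the 38 promoters of genes at least 2-fold lower, AGGTCA was in 13.2% and GCGTG in 21.1%. The base composition of the sets was neither compared nor matched.

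Among transcription factors of the Th17 programme, 7 of 16 fell, 1 rose and 8 did not pass (median log2 fold change -0.19). Fosl2, an AP-1 factor, was at 50.1, 51.2 and 46.4 FPKM with ILA and 26.4, 29.4 and 24.4 FPKM with both compounds (1.81-fold lower, adjusted p = 4.1e-05). Satb1, an organizer of chromatin in T cells, fell 1.58-fold, Hif1a, the hypoxia factor that promotes Th17 differentiation, 1.43-fold, and Maf, which encodes c-Maf, 1.37-fold (adjusted p = 6.4e-05, 3.5e-05 and 0.00222). Rora, a nuclear receptor gene, was 12.7 ± 0.116 FPKM with ILA and 13 ± 0.842 FPKM with both (n = 3, limma adjusted p = 0.798), with overlapping groups. Ahr was 5.32 ± 0.715 and 4.7 ± 0.174 FPKM (n = 3, limma adjusted p = 0.303).

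Clock genes, which keep daily rhythms in most cells, had 6 lower, 2 higher and 7 not passed of 15. The largest change in the list was a rise (log2 0.64), against -0.49 for the largest fall, though the genes named here all fell. Nr1d1, the repressor REV-ERBα, was at 6.72, 7.22 and 7.5 FPKM with ILA and 5.17, 4.94 and 5.06 FPKM with both (adjusted p = 0.00141). Cry1, a repressor of the clock, and Bhlhe40, a factor that also promotes inflammatory cytokines in T cells, fell 1.26-fold and 1.26-fold (adjusted p = 0.00182 and 0.00162). Arntl, the clock activator BMAL1, fell 1.21-fold (adjusted p = 0.0156), a call that was lost in 2 of 17 other settings.

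Cyp1a1 and Cyp1b1, the cytochrome P450 targets of AhR, were not among the genes that fell, unlike Il22. Cyp1a1 was at 111, 97.7 and 92.2 FPKM with ILA and 142, 133 and 121 FPKM with both compounds (1.31-fold higher, adjusted p = 0.00775), every combined library above every ILA library. Cyp1b1 was at 73.9, 65.2 and 65.0 FPKM and 83.1, 77.9 and 72.1 FPKM and did not pass (adjusted p = 0.0806). Its groups overlapped. Of 8 tested genes of the AhR pathway list, which does not hold Il22, 1 rose, 0 fell and 7 did not pass. The share that rose (12.5%) is near the 10.3% of all genes.

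By the naming rule, the 8 largest falls were those of Il22, Il17a, Ccl20, Tmem176b and a further 4 genes outside the Th17 lists. Ifitm1, an interferon-induced membrane protein, was at 9.68, 10.4 and 9.12 FPKM with ILA and 2.45, 1.47 and 2.14 FPKM with both (3.59-fold lower, adjusted p = 3.9e-04). Olfr60, annotated as an olfactory receptor, was at 5.15, 5.58 and 6.57 FPKM and 1.08, 0.895 and 0.791 FPKM (3.51-fold lower, adjusted p = 3.9e-06). Tent5a, a poly(A) polymerase, fell 2.59-fold and the protease inhibitor Serpinb1a 2.51-fold (adjusted p = 1.6e-05 and 8.9e-05). For each of these 4 genes the ILA group was also above the vehicle group, whose means were 3.1, 4.12, 5.55 and 2.38 FPKM.

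The largest rises were smaller. Tnfsf14, which encodes the TNF family ligand LIGHT, was at 8.19, 9.87 and 10.2 FPKM with ILA and 20.8, 20.6 and 24.1 FPKM with both compounds (2.19-fold higher, adjusted p = 3.2e-05). Klf2, a factor of quiescent T cells, was at 5.69, 5.33 and 5.61 FPKM and 12.3, 11.4 and 10.8 FPKM (1.9-fold, adjusted p = 5.8e-04). Both genes had groups without overlap. Oaf rose 1.9-fold, Tnfsf4, the costimulatory ligand OX40L, 1.74-fold, Il2 1.74-fold and Rgs16, a brake on G protein signals, 1.66-fold (adjusted p = 4.6e-04, 1.5e-04, 0.00179 and 9.0e-05). Small nucleolar RNA genes filled the other places. Snord49b (72 bases) held 13, 4 and 11 reads with ILA and 17, 27 and 32 with both, and Snora73b (205 bases) 55, 31 and 48 and 89, 72 and 125. They lie within other genes, have adjusted p of 0.033 and 0.0282, and lost their calls in 6 and 5 of 17 other settings.

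Other helper programmes moved in part, beside 9.01% of all genes called lower and 10.3% called higher. Of 9 Th1 genes 4 fell and 1 rose. Il18rap, the second chain of the interleukin-18 receptor, was at 9.23, 9.59 and 9.52 FPKM with ILA and 5.46, 4.67 and 4.19 FPKM with both (adjusted p = 1.7e-04). Stat4, which transmits interleukin-12 signals, fell 1.67-fold and Runx3, a partner of T-bet, 1.36-fold (adjusted p = 2.8e-04 and 0.00274). Ifng, the Th1 cytokine, was low in both groups, at 0.965, 1.07 and 1.08 FPKM and 1.24, 1.58 and 1.05 FPKM, and did not pass (adjusted p = 0.474). Of 10 genes of regulatory T cells (Treg) 6 fell and 1 rose. Ctla4, an inhibitory receptor, was at 186, 192 and 181 FPKM and 103, 122 and 108 FPKM (1.68-fold lower, adjusted p = 3.2e-04). Itgae, the integrin CD103, and Nt5e, the ectoenzyme CD73, fell 1.43-fold and 1.24-fold (adjusted p = 0.0024 and 0.00101). Foxp3, the Treg lineage factor, was low, at 1.88, 1.58 and 1.58 FPKM with ILA and 2.17, 2.15 and 2.19 FPKM with both (adjusted p = 0.111). Tox2, a factor of follicular helper (Tfh) cells, fell 1.5-fold (adjusted p = 3.5e-04), in a list of 8 with 2 lower and 1 higher. None of the 4 tested Th2 genes passed limma's test; Gata3, the Th2 lineage factor, was 1.64 ± 0.225 FPKM with ILA and 1.47 ± 0.234 FPKM with both (n = 3, limma adjusted p = 0.547).

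Cytokine, chemokine and TNF ligand genes outside the Th17 list were more often higher than lower. Of 16 tested, 7 rose, 1 fell and 8 did not pass (median log2 fold change 0.37). Il2, the growth factor of activated T cells, was at 117, 136 and 161 FPKM with ILA and 223, 221 and 277 FPKM with both compounds. Its vehicle libraries were at 592, 619 and 622 FPKM, so the combined group lay between ILA and vehicle. Xcl1, a chemokine that attracts dendritic cells, was at 5.84, 5.79 and 5.79 FPKM and 8.52, 9.11 and 11.4 FPKM (1.56-fold higher, adjusted p = 0.00558), below 35.5, 48.6 and 50.5 FPKM with vehicle. Ltb, lymphotoxin beta, was the exception and fell 1.23-fold (adjusted p = 0.00801).

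Genes induced through the T cell receptor split, with 14 of 27 higher, 9 lower and a median of 0.17. Cd69, an early activation marker, was at 58.2, 61.9 and 63.5 FPKM with ILA and 88.5, 90.9 and 95.7 FPKM with both (1.49-fold higher, adjusted p = 3.4e-05). Egr2, a factor that restrains T cell responses, was at 16.4, 17.5 and 16.5 FPKM and 25.7, 27.0 and 24.4 FPKM (adjusted p = 3.3e-05). Nfatc1 and the costimulatory receptor Tnfrsf9 (4-1BB) rose 1.36-fold and 1.51-fold (adjusted p = 8.5e-05 and 1.1e-04). The 9 that fell included Ctla4 and all 3 NR4A receptor genes of the list; without GSK805+ILA replicate 1 the number that fell was 4. Among genes of naive and resting T cells 4 of 17 rose (23.5%) and 3 fell (17.6%), beside 10.3% and 9.01% of all genes. Besides Klf2, Slfn2 and Foxp1, which hold T cells in quiescence, rose 1.46-fold and 1.32-fold (adjusted p = 2.9e-04 and 3.9e-04).

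Trafficking genes tended lower, 8 of 20 against 1 higher. Gpr183, a receptor for oxysterols that positions T cells, was at 6.62, 5.91 and 6.08 FPKM with ILA and 2.12, 2.7 and 2.27 FPKM with both (2.14-fold lower, adjusted p = 4.9e-05). The chemokine receptor Cxcr4 fell 1.29-fold and the integrin Itgav, which can activate TGF-beta, rose 1.28-fold (adjusted p = 1.7e-04 and 0.00197). In cytokine signal transduction 6 of 31 genes fell (19.4%) and 3 rose (9.68%), the latter near the 10.3% of all genes called higher. Those that fell included Jak3 (1.37-fold) and Il2rb (1.28-fold), which serve the interleukin-2 receptor. Stat5a was among the rises (1.2-fold), with limma adjusted p of 6.7e-04, 4.0e-04 and 0.003 for these 3 genes. Of 8 immune GTPase genes of the GIMAP family 3 rose and 1 fell, all by less than 1.5-fold. Gimap5 was at 22.4 ± 0.963 FPKM with ILA and 28.3 ± 2.0 FPKM with both (n = 3, limma adjusted p = 0.00237).

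Genes of cell division fell, most in the mitosis list and many in the replication list. Of 27 mitosis and G2/M genes tested, 23 fell and 0 rose (median log2 fold change -0.54), beside 9.01% of all genes called lower. Mki67, the proliferation marker Ki-67, was at 18.8, 20.0 and 19.0 FPKM with ILA and 10.2, 11.3 and 11.3 FPKM with both compounds (1.7-fold lower, adjusted p = 2.9e-05). Cdc20, an activator of the anaphase-promoting complex, was at 16.8, 19.5 and 17.6 FPKM and 8.85, 9.97 and 9.32 FPKM (1.83-fold lower, adjusted p = 1.6e-04). The groups of both genes were far apart. Cdc20 overlaps the end of a neighbour, Elovl1, and reads there could belong to either. Ccna2 (cyclin A2) fell 1.44-fold and Top2a (topoisomerase II) 1.47-fold (adjusted p = 2.1e-04 and 2.3e-04). DNA replication and G1/S genes had 19 of 35 lower and 0 higher (median -0.31). Uhrf1, which maintains DNA methylation, Rrm2, a subunit of ribonucleotide reductase, and the helicase genes Mcm2 and Mcm3 fell 1.61-, 1.5-, 1.3- and 1.39-fold (adjusted p = 5.1e-04, 4.0e-04, 0.00101 and 0.00162).

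Most ribosome biogenesis and endoplasmic reticulum (ER) chaperone genes rose, by small amounts. Of 22 genes of Myc and ribosome biogenesis, 20 rose and 0 fell (median 0.28), beside 10.3% of all genes called higher. Bop1, a factor of ribosome assembly, was at 38.5, 40.8 and 42.9 FPKM with ILA and 55.8, 52.3 and 56.4 FPKM with both (adjusted p = 4.0e-04). Polr1b, a subunit of RNA polymerase I, was at 10.6, 13 and 13.2 FPKM and 18, 17.9 and 18.7 FPKM (adjusted p = 0.00151). Mybbp1a and Utp20, nucleolar proteins, rose 1.25-fold and 1.32-fold (adjusted p = 5.8e-04 and 0.00113). Of 21 genes of ER chaperones and the unfolded protein response, 16 rose and 2 fell (median 0.23). Hspa5, the chaperone BiP, was at 380.0, 378 and 412 FPKM with ILA and 547, 543 and 570.2 FPKM with both (1.42-fold higher, adjusted p = 6.8e-05). Vehicle libraries held 929.5, 972 and 972 FPKM. The chaperone Hsp90b1 and the disulfide isomerases Pdia4 and Pdia3 rose 1.3-, 1.31- and 1.26-fold (adjusted p = 4.2e-04, 4.7e-04 and 7.8e-04).

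**Figure D3:**
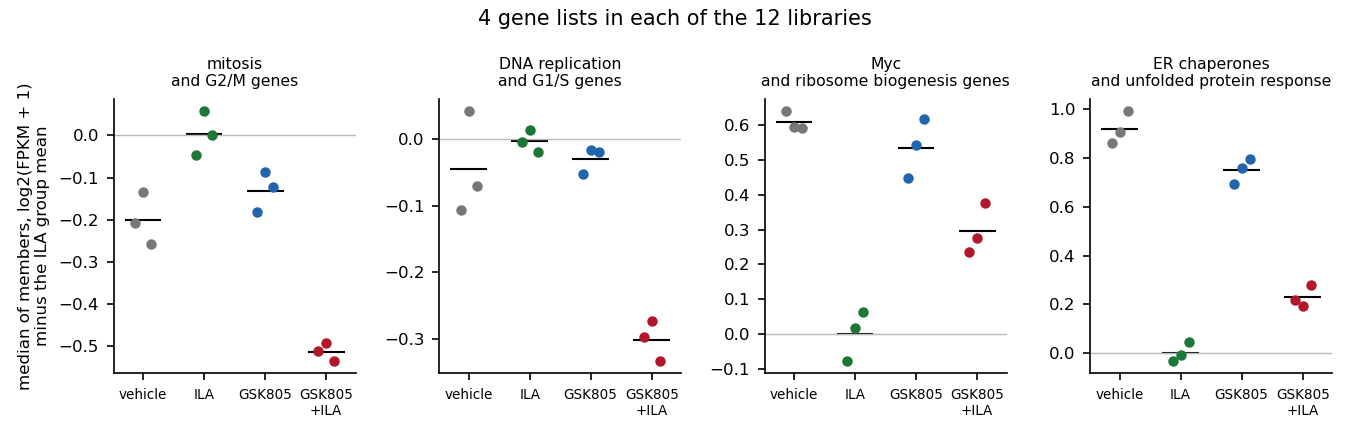
Median over list members of log2(FPKM + 1) minus the mean of the ILA group (vertical axes, different ranges), for 4 lists in each library. Points are libraries and bars means of 3; for mitosis genes the combined libraries were at -0.51, -0.49 and -0.53, below the other 3 groups, and for ER genes at 0.22, 0.19 and 0.28, between ILA and GSK805 alone.

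The ATF4 and amino acid list, a neighbouring stress response, did not follow the ER list: 7 of 23 fell, 2 rose and 14 did not pass. Atf3 was at 10.6, 10.2 and 8.95 FPKM with ILA and 5.73, 6.02 and 5.83 FPKM with both (adjusted p = 5.7e-05), Ddit4, a brake on mTORC1, fell 1.54-fold and Asns, asparagine synthetase, 1.3-fold (adjusted p = 2.0e-04 and 9.3e-04). Slc1a5, a glutamine carrier, rose 1.39-fold, from 119 ± 7.68 to 167 ± 9.11 FPKM (n = 3, limma adjusted p = 1.5e-04).

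Most glycolysis and hypoxia genes fell, 18 of 30 against 1 higher (median -0.25). Ldha, lactate dehydrogenase, was at 212, 209.6 and 214 FPKM with ILA and 164, 159.5 and 160.4 FPKM with both compounds (1.31-fold lower, adjusted p = 1.5e-04). The enzymes Tpi1 and Eno1 and the MYC antagonist Mxi1 fell 1.35-, 1.29- and 1.4-fold (adjusted p = 1.6e-04, 1.7e-04 and 9.8e-04). Sterol synthesis genes had 9 of 22 lower and 0 higher. Srebf2, the regulator of the pathway, was at 55.2, 57.9 and 56.8 FPKM with ILA and 45.5, 46.5 and 43.9 FPKM with both, and its enzyme Cyp51 at 12.7, 11.6 and 13 FPKM and 9.03, 10.4 and 9.97 FPKM (adjusted p = 2.9e-04 and 0.0033). In fatty acid synthesis Scd2, a desaturase, was at 21.2, 21.3 and 19.8 FPKM and 11.1, 11.9 and 11.1 FPKM (1.76-fold lower, adjusted p = 1.1e-04), while Acly, which makes cytosolic acetyl-CoA, rose 1.22-fold (adjusted p = 9.5e-04). The 10 tested genes of that list had 2 higher and 3 lower.

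Apart from the NRF2 genes, stress and survival lists moved little or in both directions, beside 10.3% of all genes called higher and 9.01% called lower. NRF2 genes had 4 of 14 higher and 0 lower, with Prdx1, a peroxidase, at 31.0 ± 2.4 FPKM with ILA and 41.9 ± 0.781 FPKM with both (n = 3, limma adjusted p = 7.4e-04). The 14 heat shock genes split into 4 that rose, 3 that fell and 7 that did not pass. The cytosolic chaperones Hsp90aa1 and Hsph1 rose 1.18-fold and 1.32-fold, and Hspa1b fell 1.94-fold (adjusted p = 1.7e-04, 5.8e-04 and 0.00454), though Hspa1b shares near-identical sequence with Hspa1a. In the BCL2 and p53 list 4 of 23 fell, namely Cdkn1a (p21, 1.34-fold), Pmaip1 (NOXA, 1.35-fold), Bcl2 (1.28-fold) and Mdm2 (1.14-fold), with adjusted p of 7.7e-04, 0.00126, 0.00484 and 0.0108, and 5 rose. That number of rises fell to between 0 and 3 with any 1 of the 6 libraries left out. Respiratory chain genes had 1 higher and 1 lower of 27, interferon response genes 0 and 1 of 14, and cytotoxic granule genes 2 and 0 of 7.

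**Figure D4:**
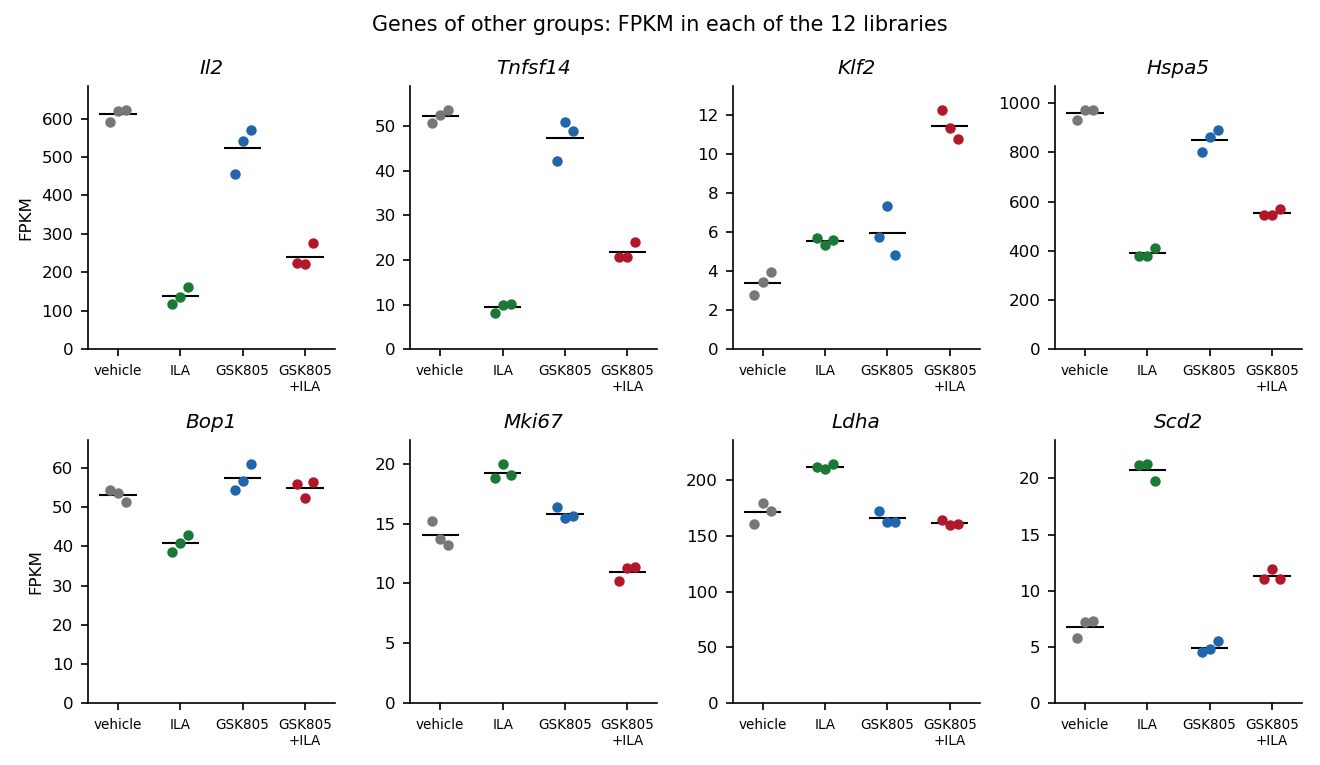
FPKM (vertical axes, linear from 0) of 8 genes from other lists in the 12 libraries, with points for libraries and bars for means of 3. Combined libraries (red) are above the ILA libraries (green) for Il2, Tnfsf14, Klf2, Hspa5 and Bop1 and below them for Mki67, Ldha and Scd2.

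The same compound was also tested without ILA, in GSK805 libraries set against vehicle libraries. No library is shared by that comparison and the one with ILA, so their effects can be set side by side. Over 13125 genes the log2 fold changes with and without ILA had a Pearson r of 0.262 and a Spearman rho of 0.191, a description over genes, which are not independent. Without ILA, 3024 of the same genes passed (23.0%). Shared calls in the same direction numbered 754, which is 29.8% of the calls with ILA and 24.9% of those without, and 159 were called in opposite directions. Of the 51 genes GSK805 lowered at least 2-fold with ILA, 31 were also called lower without ILA, beside 906 of all 13125 genes. The test of the difference itself, limma's interaction contrast, passed for 1858 genes (14.2%), 16 of them among those 51. Its split by direction depended on scaling: 681 estimates were positive and 1177 negative, against 1305 and 741 after centring every library on its median gene and 1222 and 806 with GC and length trends removed. The calls without ILA shifted likewise, from 2118 higher and 906 lower to 1055 and 1649 with median centring, to 1260 and 975 with quantile normalization, and to 1207 and 1425 with those trends removed.

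For Il17a and Il21 the fall was larger without ILA than with it. Il17a fell 6.87-fold without ILA and 3.91-fold with it, and the difference passed (log2 0.81, adjusted p = 0.0116). The same held for Il21 (2.1-fold without, 1.29-fold with; adjusted p = 0.0032). For Il23r the difference depended on the pseudocount, since its ILA level of 1.85 ± 0.354 FPKM leaves little room to fall on the FPKM + 1 scale, against 8.17 ± 1.33 FPKM with vehicle: the log2 difference was 1.25 (n = 3, limma adjusted p = 0.00274), but 0.98 with a pseudocount of 0.1 (adjusted p = 0.0904) and 0.82 with voom on recovered reads (adjusted p = 0.241). For Il17f, Ccl20, Lif, Ccr6 and Il22 the difference did not pass, with adjusted p of 0.157, 0.76, 0.31, 0.296 and 0.24, and for Ccr6 its sign changed with the pseudocount, from 0.27 to -0.66. With GSK805, Maf was 1.22-fold higher without ILA and 1.37-fold lower with it (limma adjusted p of the difference 0.00205). The difference for Maf passed in all 22 other settings. Of 16 Th17 transcription factors, 2 passed as higher without ILA, but 0 did with median centring or with GC and length trends removed. Il18r1 and Il18rap also differed (adjusted p = 8.1e-04 and 0.00278): Il18r1 was at 5.26, 4.83 and 5.65 FPKM with vehicle and 5.81, 4.85 and 5.03 FPKM with GSK805 alone.

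The GSK805 effect on mitosis, ribosome biogenesis and ER genes differed between the cultures with and without ILA. The difference is the effect with ILA minus the effect without, so its sign does not compare levels. Of all 13125 genes, 2118 were higher and 906 lower without ILA, and the difference was positive for 681 and negative for 1177. The list counts that follow are to be read beside these. Without ILA, 1 of 27 mitosis genes fell and 1 rose, and the difference passed for 19, of which 18 were negative and 1 positive. Mki67 was at 15.2, 13.7 and 13.2 FPKM with vehicle and 16.4, 15.5 and 15.6 FPKM with GSK805 alone (log2 difference of effects -0.93, adjusted p = 4.2e-04). Of the 35 replication genes 3 rose and 2 fell without ILA, and the difference passed for 10, all negative. Ribosome biogenesis genes had 0 higher and 3 lower without ILA, and the difference passed for 19 of 22, all positive. ER genes had 0 higher and 14 lower without ILA, and the difference passed for 17 of 21, all positive. For Hspa5 the change was -0.17 without ILA and 0.50 with it (log2; adjusted p of the difference 4.2e-04). Under median centring the difference was negative for 13 mitosis and 6 replication genes, with 1 mitosis gene positive. It was positive for 22 ribosome biogenesis and 19 ER genes, beside 1305 positive and 741 negative among all genes. GSK805 raised 7 of 8 GIMAP genes without ILA against 3 with it, and the difference was negative for 7. Gimap3 was at 47.9, 46.1 and 43.9 FPKM with vehicle and 87.9, 83.4 and 86.4 FPKM with GSK805 alone, but 196, 188 and 193 and 216, 226 and 216 FPKM in the corresponding groups with ILA (adjusted p = 1.9e-04).

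**Figure D5:**
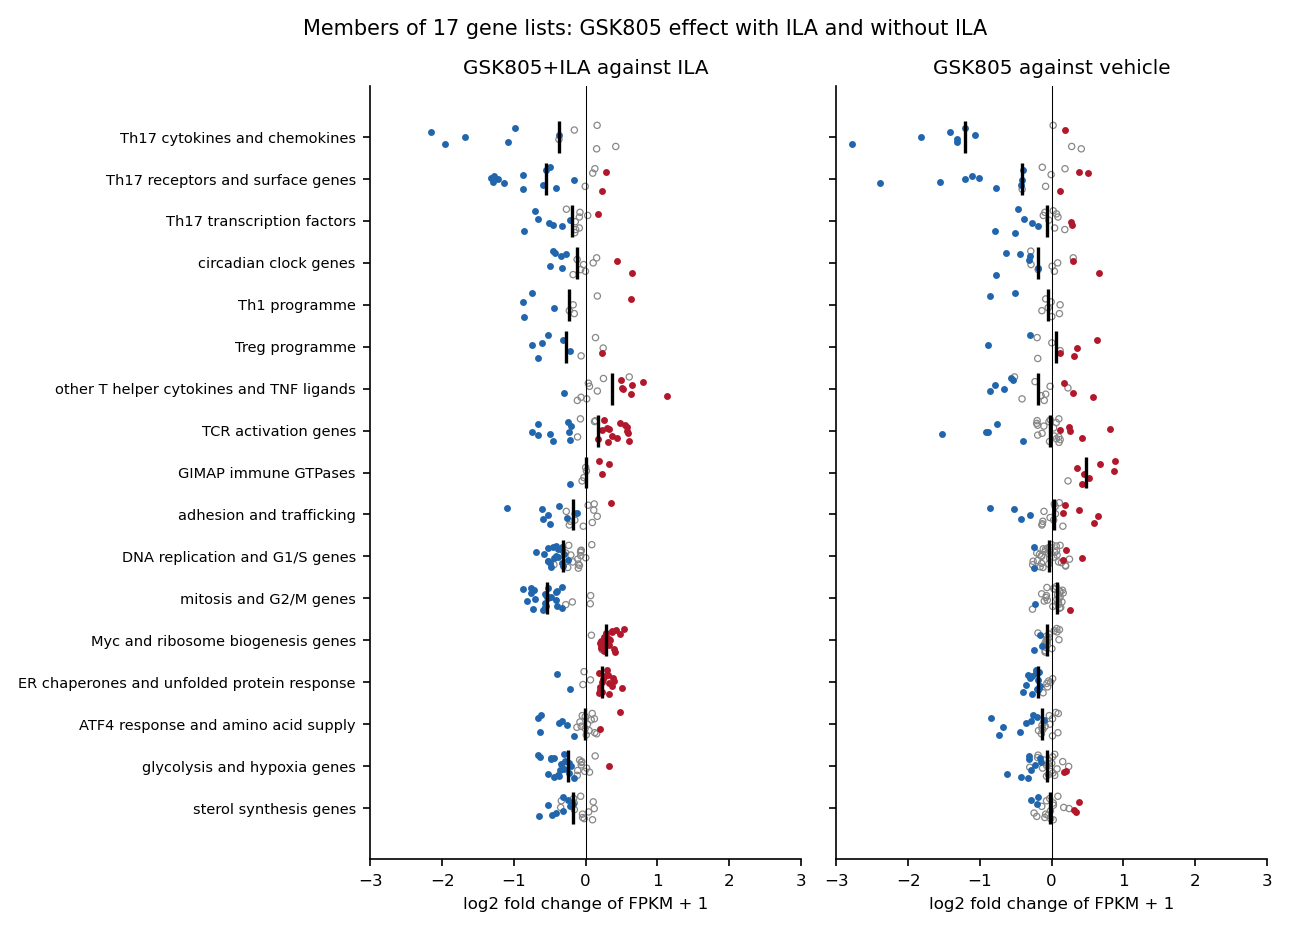
Log2 fold change (horizontal axes) of each tested member of 17 lists (rows) for GSK805 with ILA, at left, and without ILA, at right. Filled points passed as lower (blue) or higher (red), open points did not, and black bars are list medians; the bars of the mitosis, ribosome biogenesis and ER lists lie away from 0 at left and close to it, or on the other side, at right.

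By the naming rule, the largest differences between the effects lay in genes of other kinds. Besides Tnfsf14 and Xcl1, the most positive were those of Rnu12 and Mir23b, short RNA genes with at most 23 and 19 reads in a library. Tnfsf14 was at 50.5, 52.5 and 53.6 FPKM with vehicle and 42.2, 50.8 and 48.8 FPKM with GSK805 alone. Its rise when GSK805 was added to ILA thus had no counterpart without ILA (log2 difference 1.27, limma adjusted p = 4.2e-04). Besides Ifitm1, the most negative were those of Hivep3, Rab29 and the microRNA gene Mir135a-1, the last with at most 24 reads. Hivep3, a zinc finger protein, was at 16.6, 12.9 and 14.4 FPKM with vehicle and 28.1, 28.2 and 29.5 FPKM with GSK805 alone, but at 50.9, 52.6 and 52.3 and 50.3, 48.8 and 48.2 FPKM in the corresponding groups with ILA (adjusted p of the difference 4.2e-04). Rab29, a small GTPase, rose 1.47-fold without ILA and did not pass with it (log2 -0.41, adjusted p = 0.0797).

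The libraries carried the labelled cell type. All 13 CD4 T cell identity genes were tested, with summed levels of 2042 to 2185 FPKM with ILA and 2011 to 2100 FPKM with both, and 3 of them fell: the co-receptor Cd4 (117 ± 5.29 to 87.8 ± 3.67 FPKM, n = 3, limma adjusted p = 1.7e-04), Thy1 and Zap70, the last 2 with calls lost in some settings. Markers of other cells were mostly under 1 FPKM in all 6 libraries: 6 of 7 for B cells, 8 of 10 for myeloid cells, 6 of 7 for stromal cells, 6 of 8 for CD8 T and NK cells, and 4 of 5 for gamma delta T and innate lymphoid cells. S100a8, Pf4, Ppbp and Cdh5 were listed at 0 in all of them. Markers that passed the test were Klrd1 (mean 33.7 to 17.4 FPKM), Pecam1 (10.6 to 6.75 FPKM) and Cd79a (2.35 to 1.51 FPKM), with adjusted p of 8.9e-05, 1.9e-04 and 0.0159. The summed levels of their lists went from 34.3–36.9 FPKM with ILA to 18.9–20.3 FPKM with both for CD8 T and NK cells, from 10.1–11.4 to 6.52–7.36 FPKM for stromal cells, and from 2.57–2.9 to 1.93–2.12 FPKM for B cells. Cd8b1, the other tested marker of CD8 T and NK cells, was higher with both (1.5, 1.33 and 0.983 FPKM with ILA, 1.77, 1.62 and 1.69 FPKM with both, adjusted p = 0.163), and Id2, of the innate lymphoid list, lower (85.0, 97.1 and 93.5 and 74.2, 81.4 and 81.6 FPKM, adjusted p = 0.154), both without overlap but not passing the test. The part of these markers in the results was not tested. Hemoglobin genes summed to 45.3 FPKM in ILA replicate 2 and were listed at 0 in the other 5 libraries. Without that library 1771 genes were called, and the lists kept their directions: 6 Th17 cytokines and chemokines, 11 receptors and surface genes, 19 mitosis, 15 replication and 14 glycolysis genes fell, and 19 ribosome biogenesis, 14 ER and 6 other cytokine and TNF ligand genes rose. Ribosomal protein genes took 14.3, 13.9 and 14.2% of all FPKM with ILA and 12.6, 13.2 and 13.3% with both (two-sided exact permutation test, p = 0.1, which is the lowest value possible with 3 and 3 libraries).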

How the data were processed

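The deposited files gave FPKM per gene and library, computed by the authors. FastQC 0.11.2, Bowtie and the mm10 build are named, per the submitters' processing notes. Not given in the sources used here are the Bowtie version, the counter, its annotation and the use of strand. With gene lengths from GENCODE vM21, 98.6 to 98.8% of values per library were within 0.1 of whole reads, so libraries held 17805465 to 23443659 recovered reads. A single read on a gene 1 kb long then equals 0.0426 to 0.056 FPKM. Reads are without molecular identifiers, so counts are not molecules. Gene positions and overlaps are from GENCODE on GRCm38.

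FPKM + 1 was log2 transformed and fitted with limma 3.58.1 in R 4.3.3, with 1 mean per group over all 12 libraries, a variance trend and robust moderation. Contrasts were GSK805+ILA minus ILA, GSK805 minus vehicle, and their difference. P-values were adjusted by Benjamini-Hochberg over 13125 genes. The procedure was tested on simulated data. Lists are described by counts and medians, and no set test was run. The comparison, the lists and the rule for naming genes were chosen with earlier results of these data known. The rule named 17 fixed genes, the 8 largest rises and falls without overlap between groups and with a mean of at least 5 FPKM, up to 4 called members per list, and the 4 largest interaction estimates each way. Unnamed, ribosomal protein, mitochondrial, receptor segment, Gm and Rik genes and pseudogenes were left out. Alternatives were another variance model, quantile normalization, median centring, other filters, a pseudocount of 0.1, the replicate block, only the groups compared, and each library left out. After seeing the data, voom on recovered reads and removal of GC and length trends were added. Promoters are from a RefSeq table. Some of the named genes are left out of the text. Tables and plots used Python 3.11.15, numpy 2.4.6, pandas 2.3.3 and matplotlib 3.10.9.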

Additional observations from a re-analysis of the deposited data

Results flagged for a closer look

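The GSK805 effect with ILA differed from that without ILA for 64 of the named genes given here, by limma's interaction contrast at an adjusted p below 0.05. Values in parentheses are the effect with ILA minus the effect without, as a log2 difference. In the Th17 lists these were Il18r1 (-0.86), Maf (-0.74), Satb1 (-0.28), Hif1a (-0.24), Il1r1 (0.37), Il21 (0.71), Il17a (0.81) and Il23r (1.25). Among genes of ribosome biogenesis, the ER, heat shock and the ATF4 response they were Ddit4 (-0.37), Hspd1 (0.21), Bop1 (0.31), Mybbp1a (0.39), Utp20 (0.39), Hsp90aa1 (0.39), Pdia3 (0.40), Slc1a5 (0.42), Pdia4 (0.43), Polr1b (0.47), Hsp90b1 (0.53) and Hspa5 (0.68). Genes of the cell cycle gave Mki67 (-0.93), Cdc20 (-0.91), Top2a (-0.69), Ccna2 (-0.63), Uhrf1 (-0.60), Rrm2 (-0.54) and Mcm2 (-0.41). Genes of glycolysis, sterol and fatty acid synthesis gave Scd2 (-0.43), Ldha (-0.35), Srebf2 (-0.30), Eno1 (-0.30), Tpi1 (-0.27) and Acly (0.89). Genes of other cytokines, activation, quiescence, GIMAP GTPases, trafficking and signalling gave Gimap3 (-0.70), Gimap8 (-0.64), Jak3 (-0.64), Ltb (-0.60), Cxcr4 (-0.42), Gimap5 (-0.36), Gimap6 (-0.22), Egr2 (0.33), Cd69 (0.33), Tnfrsf9 (0.72), Ifng (1.02), Il2 (1.03), Tnfsf14 (1.27) and Xcl1 (1.42). Genes of the Th1, Treg, Tfh, AhR, p53 and CD4 lists gave Nt5e (-0.95), Il18rap (-0.87), Cyp1b1 (-0.53), Runx3 (-0.40), Zap70 (-0.34), Cd4 (-0.31) and Cdkn1a (0.28). The others were Mir135a-1 (-1.44), Ifitm1 (-1.33), Hivep3 (-1.01), Rab29 (-0.97), Serpinb1a (-0.63), Tent5a (-0.60), Rgs16 (0.49), Oaf (0.63), Mir23b (2.00) and Rnu12 (2.20). Over all genes tested 1858 of 13125 passed the same test (14.2%), but the named genes were not chosen independently of it. Some were named for their interaction estimate. Most others were named for their change in GSK805+ILA against ILA, which is part of the interaction contrast. Of the 2534 genes called in that comparison, 907 passed the interaction test (35.8%). The number 64 thus does not show an excess among the named genes. Of the 64 genes, 45 passed in every other setting in which they were tested and 19 did not in at least 1 (Bop1, Cdkn1a, Ddit4, Gimap6, Hif1a, Hspd1, Ifitm1, Il1r1, Il23r, Mir135a-1, Mir23b, Oaf, Polr1b, Runx3, Satb1, Scd2, Serpinb1a, Srebf2 and Tpi1), and none changed sign in those settings. The counts of 45 and 19 cover genes listed because they passed, so they do not describe interaction calls at large. On the FPKM + 1 scale a gene that is low in one pair of groups can fall little there: the Il23r difference was 0.98 with a pseudocount of 0.1 (limma adjusted p = 0.0904).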

How the results depend on the processing

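The number of genes called for GSK805+ILA against ILA (2534) stayed between 1775 and 3142 in the alternatives that keep all libraries. It was 3142 with voom on recovered reads, 2735 with GC and length trends removed and 1775 without a filter (881 higher). Leaving out each library in turn gave 1613 to 2200 calls, 831 to 1176 of them higher and 782 to 1024 lower, and the lowest count was without GSK805+ILA replicate 3. For the interaction (1858), no filter gave 1067 calls (368 positive, 699 negative). Its positive and negative calls were 1305 and 741 with median centring and 1222 and 806 with GC and length trends removed. Leaving out each library gave 1199 to 1967 interaction calls, 414 to 709 positive and 768 to 1258 negative, with 1199 without GSK805 replicate 1 and 1203 without GSK805+ILA replicate 3, and 421 positive without vehicle replicate 3. For GSK805 against vehicle it gave 2073 to 2960 calls (1407 to 2053 higher, 652 to 908 lower), the fewest higher without GSK805 replicate 1. The higher calls of that comparison were 1260 with quantile normalization, 1055 with median centring and 1207 with GC and length trends removed, and the lower calls 1649 and 1425 in the last 2. The causes of these shifts were not tested. By design, no filter adds genes near 0 to the adjustment, and a library left out lowers the number of samples. Counts did not fall each time, since without vehicle replicate 1 the interaction passed for 1967 genes. Deviations of same-numbered ILA and combined libraries were hardly correlated (0.02, -0.01 and 0.02), and not every sample correlated best with its own number. This does not settle whether samples were paired, and vehicle and GSK805 libraries were not checked. With the replicate block 2547 genes were called, 1980 in the interaction and 3028 for GSK805 against vehicle. Of 115 named genes called, 100 were called in every alternative in which they were tested and 15 lost the call in at least 1 (Arntl, Cycs, Elovl1, Elovl5, G6pdx, Gbp2, Gimap8, Gsr, Gzma, Pou2af1, Snora73b, Snord49b, Thy1, Uqcrfs1 and Zap70). Of 10 not called, Cyp1b1, Il10, Mir135a-1, Rab29 and Rnu12 passed in 1 or 2 alternatives. None of the 125 changed sign in the alternatives run. Most named genes were chosen because they passed the test, so these counts do not describe calls at large. Of all 2534 calls, 1551 to 2500 stayed called in the alternatives, the fewest without GSK805+ILA replicate 3, and 1643 without a filter.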

Other observations

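The genes and groups here were chosen after their values were seen, so the values are descriptions. A cluster of interferon-induced transmembrane genes on chromosome 7 fell together: besides Ifitm1, Ifitm2 was at 8.55, 8.52 and 6.85 FPKM with ILA and 3.85, 4.28 and 2.47 FPKM with both compounds, and Ifitm3 at 3.0, 4.47 and 4.22 FPKM and 0.158, 0.0657 and 0.565 FPKM (limma adjusted p = 0.00168 and 4.9e-04). These genes share similar sequence, and how reads were divided among them is unknown. The list of interferon response genes had 1 of 14 lower (7.14%), near the 9.01% of all genes tested. Dgat1, which makes triglycerides, was at 56.2, 60.1 and 57.5 FPKM with ILA and 26.1, 29.2 and 24.7 FPKM with both, and Plin2, a coat protein of lipid droplets, at 25.7, 23.1 and 23.5 FPKM and 12, 11.7 and 10.5 FPKM, both lower (adjusted p = 3.9e-06 and 6.8e-05). Asb2, a ubiquitin ligase subunit, was at 54.7, 60.1 and 59.7 FPKM and 25.8, 26.6 and 29.6 FPKM (adjusted p = 3.4e-05), Rbpms2, an RNA-binding protein, at 40.7, 45.6 and 41.8 FPKM and 17.7, 19.2 and 17 FPKM (adjusted p = 1.3e-05), and the homeobox gene Vax2 at 5.14, 5.39 and 4.02 FPKM and 0.389, 0.143 and 0 FPKM (adjusted p = 1.4e-05). Asb2 was lower than this with vehicle, at 3.41, 4.54 and 4.5 FPKM, and with GSK805 alone, at 2.29, 2.33 and 2.39 FPKM. Among genes that rose, Cd9, a tetraspanin, was at 47.3, 43.5 and 48.8 FPKM with ILA and 73.9, 68.5 and 71.4 FPKM with both, and Sema7a, a membrane semaphorin, at 17, 17.6 and 19.6 FPKM and 28, 27.8 and 27.9 FPKM (adjusted p = 3.4e-05 and 3.3e-05).

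Ribosomal protein genes did not rise with the ribosome biogenesis genes in cells given ILA. Of 95 tested, 36 were lower (37.9%) and 3 higher (3.16%), beside 9.01% and 10.3% of all genes. Their median log2 fold change was -0.14. Without ILA, 83 were lower and 2 higher (median -0.33), beside 3 lower and 0 higher ribosome biogenesis genes of 22. Of all 13125 genes, 906 were lower and 2118 higher without ILA. Of 117 small nucleolar RNA genes 4 were higher (3.42%) and 3 lower (2.56%) with ILA, and of 130 microRNA genes 3 (2.31%) and 1 (0.769%). All lie below the shares of all genes. Both sets are of short genes with few reads. The processed pseudogene Gm10095 was at 0.445, 607 and 1.94 FPKM in the combined libraries and 483, 0.191 and 52.8 FPKM in the GSK805 libraries, against 4.21, 0.22 and 0.696 FPKM with ILA and 0.56, 0.404 and 0.402 FPKM with vehicle. It did not pass (adjusted p = 0.484).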
